A study of Homo sapiens with 20 samples.

Results

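The 8 genes examined were *ATF4*, *ATF5*, *ATF3*, *DDIT3*, *TRIB3*, *DDIT4*, *ASNS* and *CHAC1*, the transcription factors and characteristic target genes of the integrated stress response. They were taken by symbol from the deposited table of read counts, in which each symbol named 1 row of 20314, and all 8 were among the 14992 genes with enough counts to be tested. The study sequenced 20 libraries of the human osteosarcoma line U2-OS, kept in DMEM with 10 percent FCS. One group of 5 was untreated, 2 groups of 5 had received 20 Gy of ionizing radiation (IR) and were harvested 90 minutes (first phase) or 7 days (second phase) later, and 5 libraries came from non-irradiated cells in which an shRNA lowered *NFKBIA*, the gene for the NF-κB inhibitor IκBα. According to the methods, shRNA lines of the study carried a lentiviral vector induced by doxycycline and were clonally selected with puromycin. Libraries of a scrambled shRNA were not analysed here, and the labels give no doxycycline for the untreated cells, so that the loss of *NFKBIA* cannot be told apart from transduction, clonal selection or doxycycline.

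In the integrated stress response, several kinases that each sense a different stress phosphorylate the translation factor eIF2α. General protein synthesis then falls, while mRNAs with short upstream reading frames, among them those of ATF4, ATF5 and DDIT3, are translated better. ATF4 protein binds response elements in genes of amino acid supply and redox balance and induces further factors such as ATF3, DDIT3 (CHOP) and TRIB3. ATF4 is thus controlled to a large part by translation, which mRNA levels do not show.

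Between 22535659 and 40390961 reads were counted on genes per library, the lowest total being that of untreated replicate 5. *NFKBIA*, the target of the shRNA, was at 12.1 ± 0.667 CPM (read counts scaled to a common library size; SD, n = 5) in the knockdown and at 31.3 ± 7.25 CPM in untreated cells, with all 5 knockdown libraries below all untreated ones. In each library the osteoblast and mesenchymal markers RUNX2, SPARC, COL1A1, VIM, CDH2 and ALPL were at 5.80 CPM or more, whereas COL1A2 was nearly absent at no more than 0.595 CPM. The epithelial genes KRT8 and KRT18 were expressed, EPCAM, CDH1 and KRT19 did not exceed 4.45 CPM, and PTPRC, CD3E, HBB, CDH5 and VWF did not exceed 1.98 CPM. CD68 had a median of 1.98 CPM in untreated libraries and of 23.1 CPM at 7 days post-IR. Of the libraries used, 3 stood apart in the genes described here, namely untreated replicates 2 and 5 and 90 min replicate 3, and the results they touch are given with and without them. They were picked by the values of these genes, so that p values without them tend to be too small and are descriptive. The sequencing lane in the labels nearly follows the groups: untreated replicate 5 shared a lane with 3 libraries at 90 min, 2 libraries each at 90 min and at 7 days shared another, and 3 libraries at 7 days shared a further one with knockdown replicate 1. These are bulk libraries, so a change in the share of cells that express a gene cannot be told apart from a change in RNA per cell.

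ATF4 and the C/EBP factors, to which DDIT3 belongs, bind composite C/EBP-ATF response elements. To show what such an element looks like in these genes, the letters TGATGNAA were searched on both strands of the RefSeq promoter windows (GRCh38.p14, from 250 bases before to 50 after a transcription start). All 8 genes had at least 1 window, and 3 of them (37.5%) held the letters, against 4.46% of the 27305 genes with a window. The 3 stretches are shown on the gene's strand, 5′ to 3′, with the matched letters in capitals and 36 bases on each side. That of *ASNS* lies at chr7:97872433-97872512 (minus strand) and its match starts 68 bases before the transcription start. That of *CHAC1* lies at chr15:40953226-40953305 (plus strand), starts 209 bases before the start and reads on the opposite strand. That of *ATF3* lies at chr1:212565180-212565259 (plus strand), in 1 of 2 windows of this gene, and starts 191 bases before the start.
ASNS: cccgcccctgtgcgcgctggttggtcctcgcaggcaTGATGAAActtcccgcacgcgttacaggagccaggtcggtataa
CHAC1: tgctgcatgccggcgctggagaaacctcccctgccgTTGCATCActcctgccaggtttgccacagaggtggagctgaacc
ATF3: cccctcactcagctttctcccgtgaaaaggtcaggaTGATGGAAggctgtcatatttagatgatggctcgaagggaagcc
The same letters were present in the windows of 5 of 8 amino acid transporter genes and 7 of 11 tRNA synthetase genes that are listed as ATF4 targets and had a window. They were present in 3 of 13 other targets of ATF4 and CHOP and in 1 of 18 targets of the ATF6 and XBP1 branches of the unfolded protein response. For the ATF4 targets of amino acid synthesis, where 1 of 7 held them, only 7 of 12 genes had a window, too few for a share. A match is a description of the letters and not evidence of a bound site.

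Levels of the 8 genes differed widely in untreated cells. Per kilobase of exon length, *ATF4* mRNA was the most abundant, at 205 ± 44.2 CPM per kb, followed by *DDIT4* (43.7 ± 30.1) and *ASNS* (36.5 ± 29.7), whose libraries overlapped each other and, in replicate 5, those of the next genes. *ATF5*, *DDIT3*, *CHAC1* and *TRIB3* lay between 13.4 ± 4.27 and 8.67 ± 3.32 CPM per kb, within each other's spread. *ATF3* had the lowest mean, at 4.40 ± 0.593 CPM per kb, but was above *CHAC1* in untreated replicates 1 (3.56 against 3.37) and 5 (3.99 against 3.20). All further levels are CPM without correction for length, in which the values of 1 gene can be compared between libraries. A gene was called higher or lower if its log2 fold change exceeded 0.5 in size at an adjusted p under 0.05 (edgeR quasi-likelihood test, Benjamini-Hochberg over the 14992 genes). The 3 comparisons with untreated cells share the same 5 untreated libraries.

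**Figure D1:**
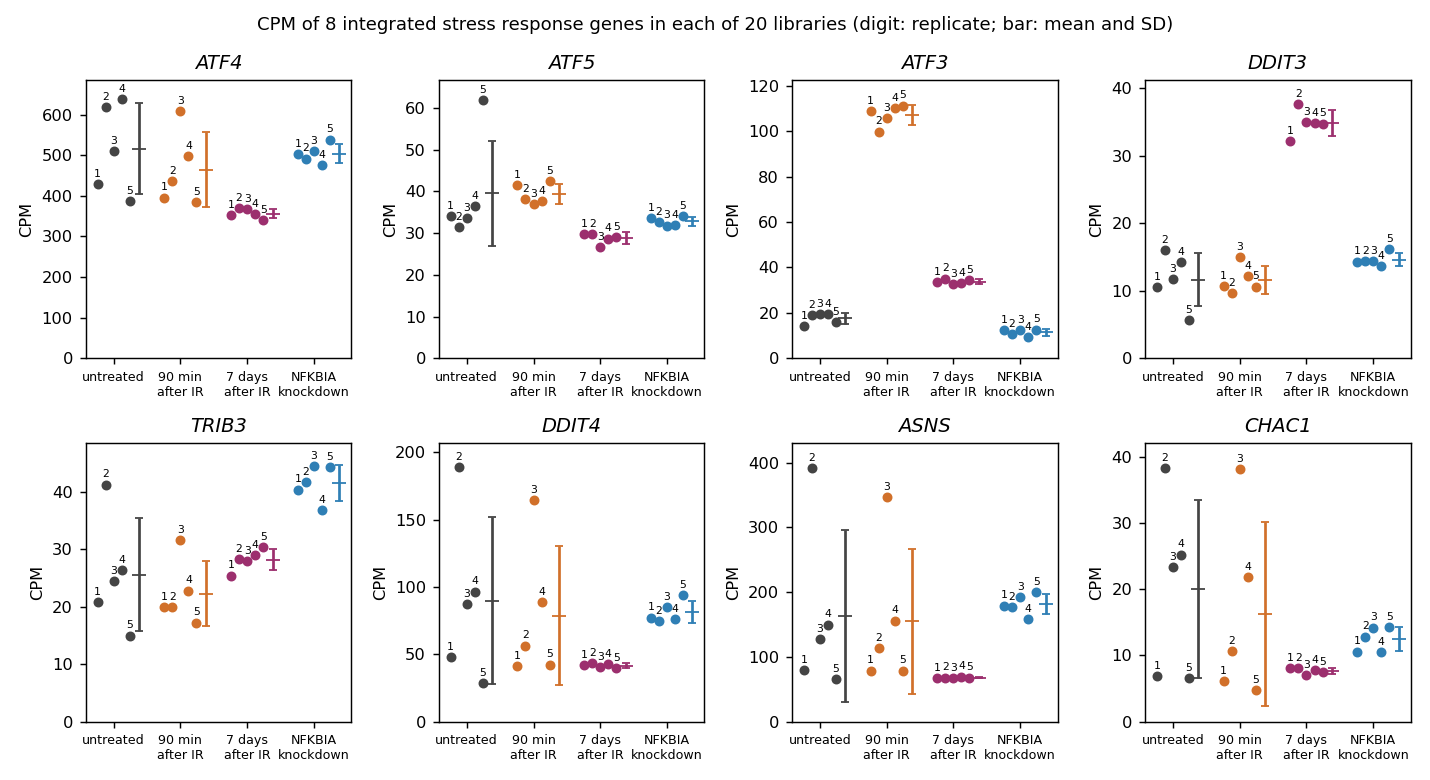
Each panel plots 1 gene, with CPM on a linear axis from 0 and the 4 groups side by side. Points are libraries labelled by replicate number and bars give mean and SD (n = 5). ATF3 is highest 90 min post-IR in all 5 libraries, DDIT3 is highest at 7 days, and DDIT4, ASNS and CHAC1 are scattered in the untreated and 90 min groups but nearly level at 7 days.

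ATF3, a basic leucine zipper factor induced by many stresses, DNA damage among them, was the gene that responded within 90 min. The untreated libraries, in the order of replicates 1 to 5, held 14.3, 19.2, 19.4, 19.3 and 16.0 CPM. At 90 min post-IR they held 109, 99.8, 106, 110 and 111 CPM, and at 7 days 33.7, 35.1, 32.6, 33.1 and 34.3 CPM. Every library at 90 min exceeded every library of all other groups, and those at 7 days exceeded all untreated ones. The rise at 90 min was 6.06-fold (log2 fold change 2.60, SE 0.0856, adjusted p = 5.86e-15 by edgeR's quasi-likelihood test), and at 7 days 1.91-fold remained (0.93, SE 0.0838, adjusted p = 3.95e-09). The direct comparison of 7 days with 90 min gave a log2 fold change of -1.67 (SE 0.0819, edgeR adjusted p = 3.48e-13). With the NFKBIA shRNA the 5 libraries held 12.5, 10.8, 12.3, 9.20 and 12.6 CPM, all below the lowest untreated library. This was a fall to 0.651 of the untreated level (log2 fold change -0.62, SE 0.0871, edgeR adjusted p = 8.96e-06). In each of these comparisons the exact two-sided permutation test gave p = 0.00794, the smallest it can give with 5 against 5 libraries. The order of *ATF3* levels was 90 min, 7 days, untreated, knockdown, and no neighbouring groups overlapped. The knockdown value was -0.62 also without the 3 libraries that stood apart. A fit with a term for the lane gave -0.39 with an edgeR adjusted p of 0.256, and that call was lost.

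Of the 8 genes, *ATF3* was the only one called at 90 min, where 3.66% of all genes tested were called (2.08% higher and 1.57% lower). Its libraries at 90 min were also the only ones among the 8 genes that did not overlap the untreated libraries, as was the case for 12.3% of all genes. The median log2 fold change of the 8 genes was -0.11, and that of all genes -0.03. *ATF4* itself, the central factor, was at 517 ± 111 CPM in untreated cells and 465 ± 91.9 CPM at 90 min (log2 fold change -0.15, 95% interval -0.41 to 0.10). For *ASNS* and *CHAC1* the intervals of the change at 90 min ran from -0.90 to 0.75 and from -1.27 to 0.63 on the log2 scale. Changes of 1.5-fold in either direction could therefore not be told from none in these 2 genes. Without the 3 libraries that stood apart *ATF3* was again the only gene called, with a log2 fold change of 2.60. With lane as a factor *ATF3* (2.71), *DDIT3* (1.04, edgeR adjusted p = 0.00338) and *ATF5* (-0.67, 8.41e-06) were called.

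**Figure D2:**
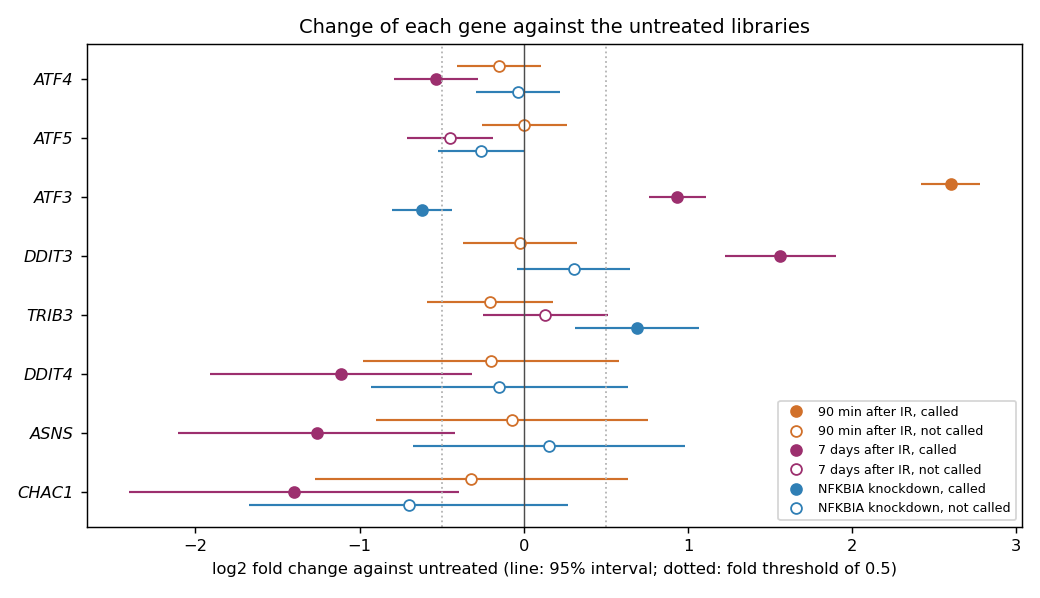
The horizontal axis gives the log2 fold change against the 5 untreated libraries for each gene, 90 min and 7 days post-IR and with NFKBIA knockdown, with 95% intervals from the edgeR fit. Filled points were called and open ones were not. ATF3 stands at 2.60 at 90 min, DDIT3 at 1.56 at 7 days, and DDIT4, ASNS and CHAC1 have the widest intervals in every comparison.

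At 7 days post-IR 6 of the 8 genes were called, 2 higher and 4 lower, against 31.1% of all genes tested (16.7% higher and 14.4% lower). In 4 of the 8 genes no library of the second phase overlapped an untreated one, as in 44.8% of all genes. The median log2 fold change of the 8 was -0.49 and that of all genes 0.01. DDIT3 (CHOP), a C/EBP family factor linked to cell death under prolonged stress, rose most. It was at 10.6, 16.0, 11.7, 14.3 and 5.71 CPM in untreated replicates 1 to 5 and at 10.7, 9.65, 14.9, 12.2 and 10.6 CPM in those at 90 min. At 7 days the values were 32.2, 37.7, 35.0, 34.8 and 34.7 CPM. No library of another group reached those of the second phase, and the untreated and 90 min libraries overlapped throughout. The rise was 2.95-fold (log2 fold change 1.56, SE 0.163, edgeR adjusted p = 3.96e-08, exact permutation p = 0.00794). Against the 90 min libraries the log2 fold change was 1.58 (SE 0.162, edgeR adjusted p = 3.22e-08), and without the 3 libraries that stood apart the rise over untreated was 1.51 on the log2 scale. With lane as a factor it was 2.66 (edgeR adjusted p = 1.95e-06). In the annotation *DDIT3* lies over MARS (named MARS1 today) and MBD6 on the opposite strand, and whether the counting used strand is not given in the sources used here, so that reads of these genes may be included. On the same strand *DDIT3* overlaps the protein-coding gene AC022506.1 and MIR616, whose reads a strand setting would not separate.

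*ATF4* was lower at 7 days. Its untreated libraries held 428, 618, 510, 638 and 388 CPM, and those at 7 days 352, 369, 367, 354 and 340 CPM. All libraries of the second phase lay below all untreated ones, the closest pair being 369 and 388 CPM. The log2 fold change was -0.54 (SE 0.124, edgeR adjusted p = 0.000751, exact permutation p = 0.00794), just beyond the threshold of 0.5. It fell short of that threshold without untreated replicate 2 (-0.47), without untreated replicate 4 (-0.47) and with library size alone as the scaling (-0.49), and was -0.57 without the 3 libraries that stood apart. The related factor *ATF5* was at 34.1, 31.4, 33.7, 36.5 and 61.8 CPM in untreated cells and between 26.6 and 29.9 CPM at 7 days. Replicate 5 was far above the other untreated libraries. With a log2 fold change of -0.45 (SE 0.126, edgeR adjusted p = 0.00396) *ATF5* was not called, although the 7 days libraries lay below all others, and without untreated replicate 5 the value was -0.26, and without all 3 libraries -0.28. It passed the threshold without untreated replicate 2 (-0.52) or replicate 3 (-0.50).

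The other 3 genes called lower at 7 days were *DDIT4*, whose product REDD1 restrains mTORC1, *ASNS*, the asparagine synthetase, and *CHAC1*, a glutathione-degrading enzyme. ASNS was at 79.2, 392, 128, 150 and 65.4 CPM in untreated replicates 1 to 5. At 90 min the values were 79.0, 113, 347, 156 and 78.9 CPM, and at 7 days 67.2, 68.2, 67.2, 69.5 and 68.0 CPM. The second-phase libraries thus differed from each other by at most 1.03-fold, and they lay at the level of the lowest untreated library, whereas the highest untreated library was 5.99-fold above the lowest. The log2 fold change at 7 days was -1.26 (SE 0.406, edgeR adjusted p = 0.0101, exact permutation p = 0.0476). Against 90 min, where no library overlapped, it was -1.19 (SE 0.405, edgeR adjusted p = 0.0153).

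DDIT4 was at 47.8, 189, 87.4, 96.6 and 28.9 CPM in untreated replicates 1 to 5. It was at 41.3, 56.4, 164, 89.0 and 42.3 CPM at 90 min and between 39.9 and 43.5 CPM at 7 days. The 7 days libraries were again nearly level and lay within the untreated range, above replicate 5. Its log2 fold change of -1.11 (SE 0.382) was called by edgeR (adjusted p = 0.0151), while the exact permutation test of log2 CPM gave p = 0.127. CHAC1 was at 6.92, 38.2, 23.3, 25.2 and 6.56 CPM in untreated replicates 1 to 5, at 6.07, 10.6, 38.1, 21.8 and 4.79 CPM at 90 min, and between 7.04 and 8.08 CPM at 7 days. Here the 7 days libraries lay just above untreated replicates 1 and 5 and well below the other 3. The log2 fold change was -1.40 (SE 0.483, edgeR adjusted p = 0.0157, exact permutation p = 0.167).

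The calls of these falls depended on 1 library. Without untreated replicate 2, in which *ASNS*, *DDIT4* and *CHAC1* were highest, the log2 fold changes at 7 days were -0.64 (edgeR adjusted p = 0.0934), -0.65 (0.101) and -1.03 (0.0683), so that none of the 3 was called and the count of called genes was 3 (*ATF3*, *DDIT3* and *ATF5*). When untreated replicates 2 and 5 and 90 min replicate 3 were all left out, a setting chosen after seeing the data, the values were -0.81 (edgeR adjusted p = 0.000461), -0.90 (0.000511) and -1.27 (0.00403), and 6 genes were called again out of 32.0% of all genes. Leaving out libraries picked by the values of these genes narrows their spread, so these p values are too small to restore the calls. With the sequencing lane as a factor, a fit that ties the untreated to the irradiated groups through untreated replicate 5 only, the log2 fold changes were 0.66, 0.97 and 0.75, none of them called, and *ATF4* was at 0.015. That fit called *ATF5* lower (-1.09) and *TRIB3* higher (1.09, edgeR adjusted p = 0.0336) at 7 days. No untreated library shared a lane with a 7 days or knockdown library. In the comparisons of these groups with untreated cells, lane and group could therefore not be told apart directly for any gene.

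The direct comparison of both times after irradiation called 4 of the 8 genes, against 29.3% of all genes (16.8% higher and 12.6% lower), and 5 of the 8 did not overlap, against 61.8% of all genes. *DDIT3* was higher at 7 days than at 90 min, and *ATF3*, *ASNS* and *DDIT4* were lower. The last of these was close to the threshold, with a log2 fold change of -0.92 (SE 0.381, edgeR adjusted p = 0.0433, exact permutation p = 0.0794). *ASNS* and *DDIT4* lost the call without 90 min replicate 3, at -0.67 and -0.48, and *DDIT4* also lost it without 90 min replicate 4 and without any 1 of the 7 days libraries, with edgeR adjusted p values of 0.0589 to 0.0730. *CHAC1* was not called (-1.08, SE 0.484, edgeR adjusted p = 0.0597), but was in a fit of these 2 groups alone (adjusted p = 0.0294) and without 90 min replicate 1 (-1.32), 2 (-1.22) or 5 (-1.32), while it was -0.51 (edgeR adjusted p = 0.338) without 90 min replicate 3 and -0.72 (0.454) with lane as a factor. Without all 3 libraries that stood apart, *ASNS* was called (-0.66, edgeR adjusted p = 0.00169) and *DDIT4* was not (-0.46, adjusted p = 0.0355). With lane as a factor neither was, *ASNS* at -0.80 (edgeR adjusted p = 0.292) and *DDIT4* at -0.62 (0.363), and *ATF3* and *DDIT3* were. Within the lane that held 2 libraries of each time, the same 4 genes were called, with *ATF3* at -1.70, *DDIT3* at 1.60, *ASNS* at -0.81 and *DDIT4* at -0.64 on the log2 scale. For *DDIT4* these libraries overlapped, with 89.0 and 42.3 CPM at 90 min and 41.8 and 43.5 CPM at 7 days.

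Among the genes tested, *DDIT4*, *ASNS* and *CHAC1* were also among those that varied most between replicates. In untreated cells the SD of log2 CPM was 1.03 for *DDIT4*, 1.01 for *ASNS* and 1.16 for *CHAC1*, where the median gene had 0.22. At 90 min it was 0.84, 0.89 and 1.25 against a median of 0.083, which ranked *CHAC1* 3, *ASNS* 17 and *DDIT4* 25 from the top of 14992 genes. At 7 days the SD of *ASNS* was 0.020, with 3.14% of genes below it, and those of *DDIT4* and *CHAC1* were 0.053 and 0.082 with a median of 0.064. In the knockdown the 3 SDs lay between 0.13 and 0.22. *ATF3* had an SD of 0.20 in untreated cells and 0.062 at 90 min, each below the median gene, but of 0.19 in the knockdown, where the median was 0.074. The 3 libraries that stood apart include the highest of these genes in both groups, and were left out as a check. The SDs of *DDIT4*, *ASNS* and *CHAC1* were then 0.55, 0.48 and 1.04 in untreated cells with a median gene at 0.14, and 0.51, 0.47 and 0.97 at 90 min with a median of 0.077. That of *ATF3* in untreated cells was then 0.25, above the median gene.

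**Figure D3:**
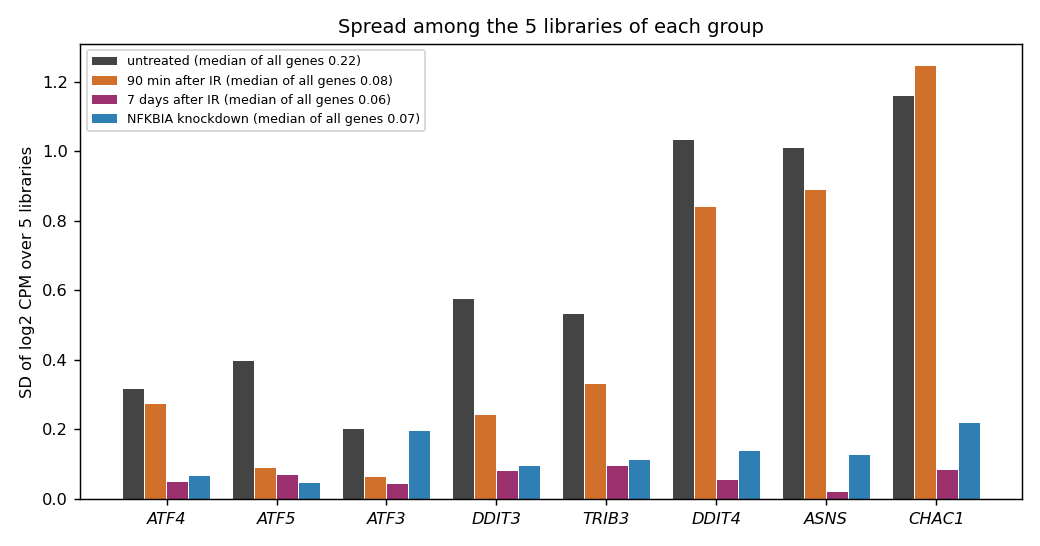
Bars give the SD of log2 CPM over the 5 libraries of each group for each gene, on a linear axis from 0, and the legend gives the median SD over all genes tested. DDIT4, ASNS and CHAC1 are far above the median in the untreated and 90 min groups, and at or below 0.082 at 7 days.

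The scatter had an order. From lowest to highest, *DDIT3*, *TRIB3*, *DDIT4*, *ASNS* and *CHAC1* all ranked the untreated replicates 5, 1, 3, 4, 2. At 90 min *ATF4*, *TRIB3*, *ASNS* and *CHAC1* all ranked the replicates 5, 1, 2, 4, 3, and *DDIT4* differed from this only in replicates 1 and 5. This order was noticed in the values and is given as a description. The highest library was the same in most genes of amino acid supply that ATF4 is known to induce. Untreated replicate 2 was the highest of its group in 11 of 12 genes of serine, one-carbon, proline and cysteine synthesis, in 10 of 10 amino acid transporters and in 13 of 13 genes of the cytosolic tRNA synthetase list, and in 17.5% of all genes tested. At 90 min replicate 3 was the highest in 11 of 12, 9 of 10 and 13 of 13 of these, and in 24.1% of all genes. Replicate 2 was highest in 4 of 18 targets of the ATF6 and XBP1 branches, 5 of 12 p53 targets and 0 of 12 immediate early genes, and replicate 3 in 3, 3 and 5 of these.

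On average over the synthesis genes, untreated replicate 2 was 0.85 above and replicate 5 was 0.61 below their group mean on the log2 scale. Over the transporters these were 0.77 above and 0.37 below, and over the tRNA synthetases 0.47 above and 0.35 below. Untreated replicate 1 was also below, by 0.42, 0.38 and 0.19 in the 3 lists, and was the lowest library over the transporters. At 90 min, replicate 3 was 0.75, 0.65 and 0.42 above the group mean in the 3 lists. The largest departure of a library from its group mean in these lists was 0.08 at 7 days and 0.11 in the knockdown, both downwards. Untreated replicate 2, with 36224245 counted reads, and 90 min replicate 3, with 35627047, were sequenced in the same lane as other libraries of their group. Replicate 5 had the lowest depth of all and the lane of the 90 min libraries, and whether depth or lane had a part in the values of these 3 libraries was not tested.

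**Figure D4:**
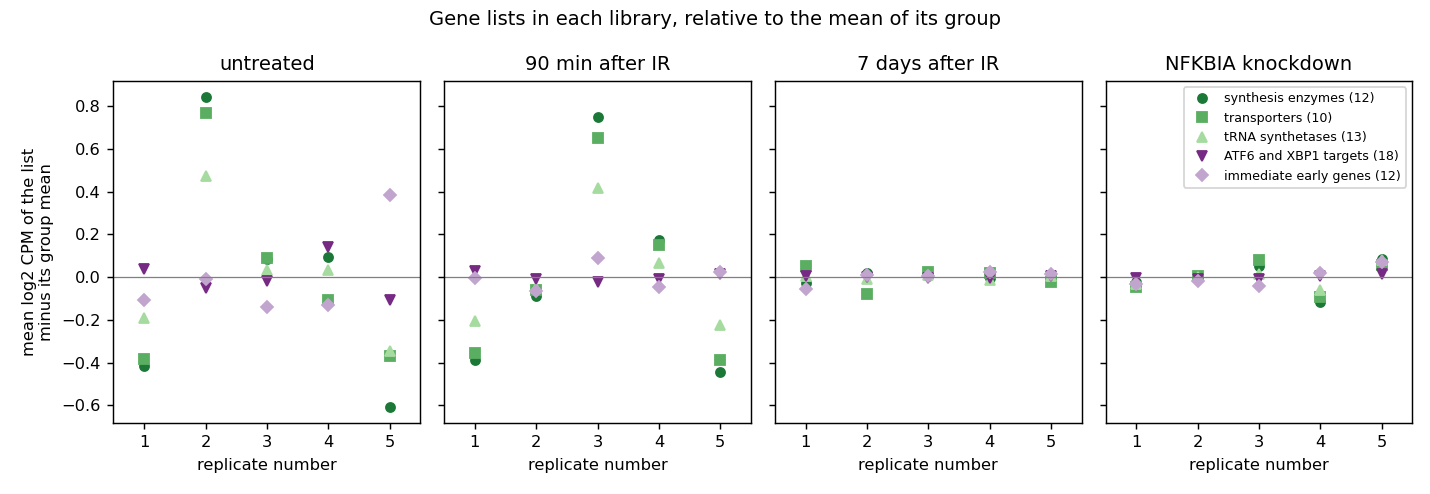
For each of 5 gene lists, points give the mean log2 CPM of its genes in a library minus the mean of that library's group, against the replicate number, with 1 panel for each group. The 3 lists of ATF4 targets stand together at 0.47 to 0.85 in untreated replicate 2 and at 0.42 to 0.75 in 90 min replicate 3, whereas the 7 days and knockdown libraries lie near 0.

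TRIB3, a pseudokinase that is induced through ATF4 and CHOP and dampens their activity, was the gene that rose with NFKBIA knockdown. Untreated replicates 1 to 5 held 20.8, 41.2, 24.4, 26.4 and 14.98 CPM and the knockdown libraries 40.4, 41.6, 44.4, 36.8 and 44.3 CPM. The groups overlapped through untreated replicate 2 alone. The rise was 1.61-fold (log2 fold change 0.69, SE 0.182, edgeR adjusted p = 0.00461, exact permutation p = 0.0238), and it was 0.80 on the log2 scale without the 3 libraries that stood apart and 1.56 with lane as a factor (edgeR adjusted p = 0.0220). At 90 min *TRIB3* was at 22.3 ± 5.58 CPM and at 7 days at 28.2 ± 1.82 CPM, both overlapping the untreated range, and neither was called, except that the fit with lane as a factor called the latter higher. Against the knockdown, *TRIB3* at 7 days had a log2 fold change of -0.56 (SE 0.181, edgeR adjusted p = 0.0121) with no overlap of libraries, a call lost with lane as a factor (-0.47, adjusted p = 0.176).

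With knockdown, 2 of the 8 genes were called, *TRIB3* higher and *ATF3* lower, against 12.7% of all genes (5.18% higher and 7.53% lower). *ATF3* alone had libraries that did not overlap, as had 24.1% of all genes, and the median log2 fold change of the 8 was -0.09 with -0.01 over all genes. *ASNS* was at 179, 177, 192, 159 and 200 CPM in the knockdown libraries, above all untreated libraries but replicate 2, with a log2 fold change of 0.15 (95% interval -0.68 to 0.98). Without the 3 libraries that stood apart it was 0.61 (edgeR adjusted p = 0.00913), and *ASNS* was then called higher in the knockdown. Because those libraries were picked by the values of such genes, this p value is too small and the call is descriptive. The other 5 genes were not called in either fit, but with lane as a factor *DDIT3* was called higher (1.38) and *ATF5* lower (-0.84). *DDIT4* (81.4 ± 8.01 CPM) and *ATF4* (504 ± 23.4 CPM) lay within the untreated range, as did *CHAC1* (12.5 ± 1.87 CPM) and *ATF5* (32.8 ± 1.04 CPM), and *DDIT3* (14.6 ± 0.977 CPM) exceeded it in 1 library.

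Between the second phase and the knockdown, 5 of the 8 genes were called, against 25.7% of all genes (15.8% higher and 9.89% lower), and all 8 had libraries that did not overlap, as had 60.7% of all genes. *ATF3* and *DDIT3* were higher at 7 days by 1.55 (SE 0.0863) and 1.26 (SE 0.161) on the log2 scale, and *ASNS*, *DDIT4* and *TRIB3* were lower. *ASNS* differed most among the latter, with a log2 fold change of -1.41 (SE 0.407, edgeR adjusted p = 0.00543), and the range of untreated cells spanned the values of both groups. *DDIT4* was at -0.97 (SE 0.382, edgeR adjusted p = 0.0360) and lost the call without any 1 of the 7 days libraries or without knockdown replicate 3 or 5, at adjusted p values of 0.0520 to 0.0634. *ATF4* missed the threshold at -0.499 (SE 0.123, edgeR adjusted p = 0.00165) and passed it, at -0.50 to -0.54, under most other settings, DESeq2 and each other scaling among them. With lane as a factor *ASNS* (-1.39, edgeR adjusted p = 0.0945) and *DDIT4* (-0.91, 0.235) lost their calls in this comparison. A fit of these 2 groups alone, which takes no spread from the other groups, called *DDIT4* (-0.97, edgeR adjusted p = 4.62e-14) and *ASNS* (-1.42, 5.02e-18) lower. That fit also called *CHAC1* lower (-0.70, edgeR adjusted p = 1.04e-07). Between knockdown and 90 min, 2 of the 8 genes were called, against 14.1% of all genes (6.54% higher and 7.6% lower), and 3 of the 8 did not overlap, against 43.6% of all genes, with *ATF3* lower by 9.32-fold and *TRIB3* higher by 1.86-fold. With lane as a factor *TRIB3* kept its value (0.90) but not its call (edgeR adjusted p = 0.136). Without the 3 libraries *DDIT4* (0.51) and *ASNS* (0.77) were called too.

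The remaining genes of the pathway were described from 9 lists written from general knowledge. Upstream of ATF4, none of the 8 subunits of eIF2 and its exchange factor eIF2B was called against untreated cells in any group, where 3.66% (90 min), 31.1% (7 days) and 12.7% (knockdown) of all genes were called. Among 10 genes for eIF2α kinases and for subunits of its phosphatases, PPP1R15B, the constitutive phosphatase subunit, rose at 90 min (log2 fold change 0.54, SE 0.0608). PPP1R15A, the stress-induced subunit also known as GADD34, rose at 7 days (0.95, SE 0.0567), and the catalytic subunit PPP1CA fell (-0.54, SE 0.0644). None of the 10 was called with knockdown.

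The genes of amino acid supply fell at 7 days where they were called, when 14.4% of all genes were lower. Of 12 synthesis genes 5 were lower and none higher, among them PHGDH, the first enzyme of serine synthesis, with a log2 fold change of -1.55 (SE 0.218), and ALDH1L2 of the mitochondrial folate pathway with -1.30 (SE 0.459). Of 10 amino acid transporters 6 were lower and none higher, with SLC7A3, a cationic amino acid carrier, at -3.42 (SE 0.619) and the glycine carrier SLC6A9 at -1.41 (SE 0.213). In contrast, 1 of 13 genes of the tRNA synthetase list was called, GARS at -0.54 (SE 0.164). The median log2 fold changes were -0.63, -0.85 and -0.21 in the 3 lists and 0.01 over all genes. Without the 3 libraries that stood apart, 4 synthesis genes, 6 transporters and 0 tRNA synthetase genes were called lower, with medians of -0.41, -0.63 and -0.15. At 90 min, against 3.66% of all genes, none of these genes was called, and with knockdown, against 12.7%, the transporter SLC7A5 was (-0.51, SE 0.141). With knockdown and these libraries left out, when 13.2% of all genes were called, 2 synthesis genes were higher and 0 transporters lower. The lists were not tested without untreated replicate 2 alone or with lane as a factor. Both settings removed the 7 days calls of *ASNS*, *DDIT4* and *CHAC1*.

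Of 16 other targets of ATF4 and CHOP, 15 could be tested. At 90 min, when 2.08% of all genes were higher, 5 were higher and none lower, led by the secreted factor GDF15 (log2 fold change 2.33, SE 0.165) and the cell death gene BBC3 (1.51, SE 0.0865). At 7 days, when 16.7% of all genes were higher and 14.4% lower, 5 were higher, with GDF15 at 3.86 (SE 0.166) and the death receptor gene TNFRSF10B at 1.17 (SE 0.0797), and 2 were lower, FGF21 (-2.10, SE 0.834) and JDP2 (-1.26, SE 0.114). With knockdown, where 5.18% of all genes were higher and 7.53% lower, GDF15 was higher (1.54, SE 0.169) and JDP2 lower (-0.53, SE 0.112). When the same 3 libraries were left out, all 16 could be tested, with 4 higher and 0 lower at 90 min, 5 higher and 2 lower at 7 days, and 3 higher and 0 lower with knockdown. GDF15, BBC3 and TNFRSF10B are also known targets of p53. Of the 12 genes in the p53 list, 11 were higher at 90 min and 12 at 7 days, and 2 with knockdown, against the same 2.08%, 16.7% and 5.18% of all genes. BTG2 (1.89, SE 0.0432) and CDKN1A (1.61, SE 0.0525) rose most at 90 min, CDKN1A (1.86, SE 0.0529) and FAS (1.82, SE 0.0484) at 7 days, and GADD45A (0.87, SE 0.0762) and RRM2B (0.53, SE 0.0753) with knockdown.

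A pair of lists outside the pathway was read for comparison, against the same shares of all genes. Of 18 targets of the ATF6 and XBP1 branches, DNAJB9, a chaperone of the endoplasmic reticulum, was the only one called after irradiation, at 0.59 (SE 0.0757) at 90 min and 1.19 (SE 0.0757) at 7 days. With knockdown HERPUD1 (-0.62, SE 0.102) and SEC61B (-0.59, SE 0.0762) were lower. Of 12 immediate early genes 9 were higher at 90 min, led by FOSB (1.97, SE 0.234) and IER3 (1.37, SE 0.0835). At 7 days 3 were higher, among them FOSB (2.09, SE 0.234) and DUSP1 (0.85, SE 0.0776), and EGR2 was lower (-0.63, SE 0.189). With knockdown EGR2 (-0.60, SE 0.189) and IER3 (-0.51, SE 0.0831) were lower. In untreated replicate 5 this list stood 0.39 above the group mean, and without the 3 libraries 10 genes were higher at 90 min, 3 higher and 0 lower at 7 days, and 1 lower with knockdown.

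**Figure D5:**
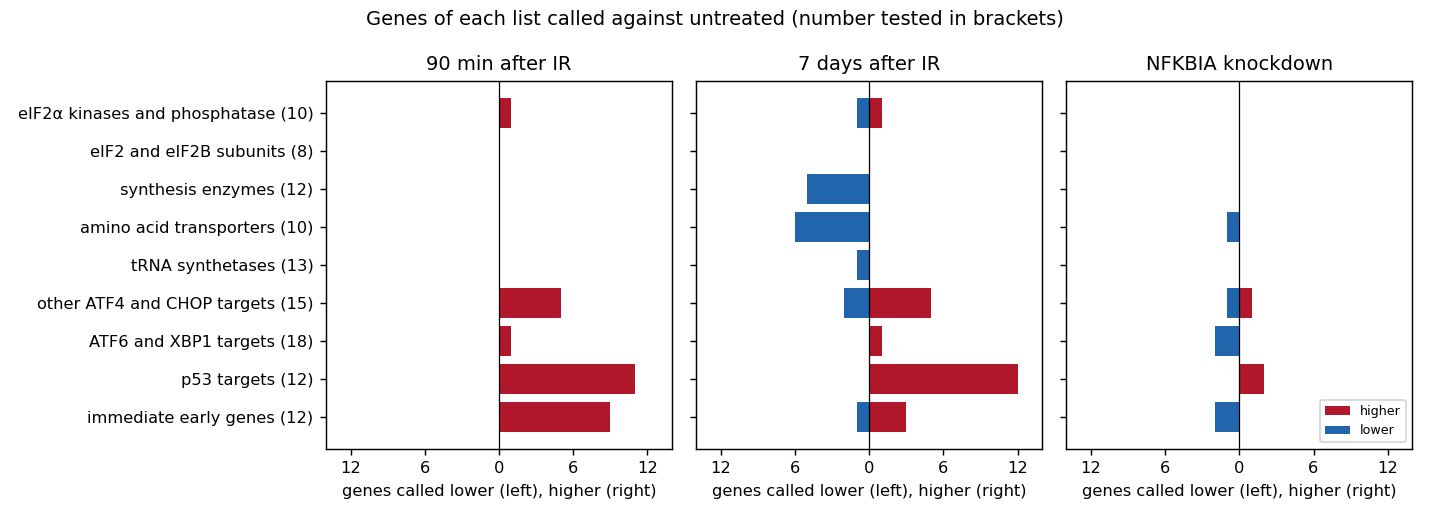
Bars count the genes of each list called lower (left) and higher (right) against untreated cells, in 1 panel for each comparison, with the number tested in brackets. At 7 days 5 synthesis genes and 6 transporters are lower and none higher, and the p53 list has 11 genes higher at 90 min and 12 at 7 days.

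For each of the 8 genes the most similar profiles among the other 14991 were listed, by the root mean square difference over the 20 libraries of log2 CPM after subtraction of the gene's untreated mean. For *ASNS* these were PCK2 (0.18), PSAT1 (0.22) and *DDIT4* (0.23), where the median gene differed by 0.85. For *DDIT4* they were PCK2 (0.22), *ASNS* (0.23) and PSAT1 (0.26), and for *CHAC1* they were *DDIT4* (0.41), GPT2 (0.48) and SLC1A4 (0.49). For *ATF3* they were BTG2 (0.50), RRAD (0.56) and EGR4 (0.63), with a median gene at 1.46. *ATF4* was closest to MID1IP1 (0.10), ASPHD2 (0.13) and MTHFD1L (0.13), and *ATF5* to DAZAP2, NUDT21 and BRD2 (all 0.10). *DDIT3* was closest to SDC1 (0.22), TMOD1 (0.23) and a gene without a symbol (0.23), and *TRIB3* to ARHGEF2 (0.20), GPAT3 (0.21) and HNMT (0.22). Among the 8 genes themselves, *DDIT4* and *ASNS* were the closest pair and *ATF3* and *CHAC1* the farthest apart (1.94). Over the 17 libraries without the 3 that stood apart, the nearest profiles changed: 2 of the 3 named were kept for *ATF4*, *ATF3* and *ASNS*, 1 for *TRIB3* and *CHAC1*, and 0 for *ATF5*, *DDIT3* and *DDIT4*.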

How the data were processed

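RNA-seq of 20 U2-OS libraries, 5 in each of 4 groups taken from the labels, was re-analysed from the raw read counts that the authors deposited for 20314 genes, without normalization. According to the methods, Trizol-extracted total RNA was made into stranded mRNA libraries and sequenced as single reads. Per the labels' processing notes, bcl2fastq, Trimmomatic, STAR 2.4.2a and the build hg19 were used. The counting tool, annotation and strand setting are not given in the sources used here, so counts of overlapping genes and of pseudogene copies, of which GENCODE 29 names 4 each for *ATF4* and *ASNS*, may include each other's reads. That annotation also places *ATF5*, *DDIT4* and *ASNS* over genes on the opposite strand, and *ATF5* over MIR4751 and *ASNS* over AC079781.5 on the same strand.

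Counts were filtered by filterByExpr (minimum count 10), scaled by TMM and fitted with edgeR 4.0.16 in R 4.3.3, as 1 quasi-likelihood model of all libraries with a term for each group. Adjusted p values cover 14992 genes (Benjamini-Hochberg). Standard errors were derived from the F statistic. Exact permutation tests compared log2 CPM (prior count 2), 5 against 5 libraries. The study describes 5 biological replicates a group, and p values measure the spread between these samples. The model assumes the same dispersion of a gene in all groups, which *DDIT4*, *ASNS* and *CHAC1* did not have. Their p values in a comparison therefore depend also on the spread in groups outside it. Tests were checked on simulated data. Alternatives used RLE, upper-quartile or no scaling factors, DESeq2 1.42.0, other filters, 2-group fits, replicate number or lane as a factor, and left out libraries. The 8 genes and the lists were chosen with earlier results of these data known. All 8 genes are named, with the 3 nearest profiles of each and, per list and comparison with untreated, up to 2 called genes with the largest rise and 2 with the largest fall. Sequences came from RefSeq promoter windows (GRCh38.p14), a build other than that of the counts, and figures from matplotlib 3.10.9.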

Additional observations from a re-analysis of the deposited data

Results flagged for a closer look

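*ATF5* in untreated replicate 5, at 61.8 CPM, lay apart from the other 4 untreated libraries, which held 31.4 to 36.5 CPM. The gap took up 0.776 of the group's range on the log2 scale, beyond Dixon's 95% critical value for 5 samples. This was the only 1 of 32 sets of 5 libraries (8 genes in 4 groups) that passed, and chance alone passes about 1 in 20. The same library had the lowest *DDIT3*, *TRIB3*, *DDIT4*, *ASNS*, *CHAC1* and *ATF4* of its group, the lowest depth and a lane apart from the other untreated libraries, and their part in its values was not tested.

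The changes against untreated cells differed between both times after irradiation, by the direct test of 7 days against 90 min, in 4 genes. The log2 fold change between the times was -1.67 for *ATF3* (edgeR adjusted p = 3.48e-13), 1.58 for *DDIT3* (3.22e-08), -1.19 for *ASNS* (0.0153) and -0.92 for *DDIT4* (0.0433). The last 2 were not called without 90 min replicate 3.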

How the results depend on the processing

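Counts of called genes among the 8 changed by over 1.5 times in these cases. With lane as a factor they were 3 in place of 1 at 90 min, 2 in place of 4 for 7 days against 90 min, 2 in place of 5 for 7 days against knockdown, and 1 in place of 2 for knockdown against 90 min. Without the 3 libraries that stood apart (chosen after seeing the data) the last was 4. Leaving out 1 library at a time gave 3 to 7 called genes at 7 days against untreated (3 without untreated replicate 2), 2 to 5 against 90 min (2 without 90 min replicate 3), 4 to 6 against knockdown, and no change in the other comparisons. Lane as a factor reversed the 7 days changes of *ATF4* (0.0149, edgeR adjusted p = 0.968), *DDIT4* (0.97), *ASNS* (0.66) and *CHAC1* (0.75), and the 90 min changes of *ATF5* (-0.67) and *DDIT3* (1.04), the last 2 then being called. The cause was not tested, and that fit joins untreated to irradiated libraries through 1 library. Of 48 single changes, called or not, 25 stayed on their side of the threshold in every setting, among them the calls of *ATF3* and *DDIT3* at 7 days and *ATF3* at 90 min, and 47 of the 968 values recomputed over all settings changed sign without being called in either fit. *DDIT4* at 7 days against 90 min lost its call in DESeq2 (-0.93, adjusted p = 0.0542) and with library size alone or upper-quartile factors. Deviations of same-numbered libraries correlated at -0.25 to 0.12. These values showed no pairing by replicate number but cannot exclude a shared culture or day, which the labels do not state. With a replicate block, *DDIT4* at 7 days against 90 min was not called (-0.77, edgeR adjusted p = 0.0705), *ATF4* at 7 days against knockdown was (-0.50), and no other call among the 8 genes changed. Counting error is largest at low counts, and the smallest count of any of the 8 genes was 120 reads, for *DDIT3* in untreated replicate 5.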
